A study of Mus musculus with 6 samples.

Results

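The insulin-like growth factor binding proteins are secreted proteins that bind insulin-like growth factors outside the cell, and 6 of their genes, Igfbp2 to Igfbp7, were followed here in the embryonic mouse cochlea. All probe sets that the platform annotation gives to one of these genes alone were taken, which came to 14 of 22690 probe sets on the array. Igfbp4 had 6 of them, Igfbp7 had 3, Igfbp5 had 2, and Igfbp2, Igfbp3 and Igfbp6 had 1 each. No probe set named a member together with another gene. Igfbp1, the remaining gene of the family, is not a member and its probe set was not above background in either genotype.

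The samples were 3 RNA pools of Igf-1 -/- (Igf1 null) cochleae and 3 pools of Igf-1 +/+ (wild type) cochleae, all from embryos of heterozygous parents on a C57BL/6J background at embryonic day 18.5. Each pool held 4 cochleae, dissected with their otic capsule but without vestibular tissue, and went onto its own Affymetrix array. The labels give neither the sex of the embryos nor the part of Igf1 that was disrupted, and in 1 label field the null pools are marked +/+ and 1 wild type pool has a slightly later age. Values below are log2 signals after quantile normalization of the 6 arrays, and differences are null minus wild type. With 3 arrays per genotype, precision is limited by their number and by the spread between them.

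Most insulin-like growth factor outside cells is held by these proteins, which keep it from its receptor, prolong its life and release it when proteases cut them. They differ in what else they do. IGFBP3 and IGFBP5 can join a ternary complex with the acid-labile subunit in blood, IGFBP2 carries an integrin-binding motif, IGFBP4 is known mainly as an inhibitor of growth factor action and is cut by the protease PAPP-A, IGFBP5 also binds extracellular matrix and is abundant in bone, IGFBP6 prefers IGF2 to IGF1, and IGFBP7 binds the growth factors only weakly. In cultured muscle and bone cells Igfbp5 transcript is known to rise when IGF1 is added. In the mouse, Igf1 is known to be needed for the maturation of the cochlea and the survival of its neurons.

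Promoter sequence is shown for Igfbp5 and Igfbp4 first, because these are the genes with a probe set at which every null array lay below every wild type array. Sequences are from the RefSeq promoter table of build GRCm38.p6, which held all 6 genes, and end at the last base before the annotated start (the first listed of 2 starts for Igfbp2). They run 5′ to 3′ on the gene's strand, and capitals mark the TATA-like motifs and the GC box named after the sequences, on either strand. For the other members the last 80 bases are given for comparison.
Igfbp5 promoter, chr1:72874866-72875115, minus strand: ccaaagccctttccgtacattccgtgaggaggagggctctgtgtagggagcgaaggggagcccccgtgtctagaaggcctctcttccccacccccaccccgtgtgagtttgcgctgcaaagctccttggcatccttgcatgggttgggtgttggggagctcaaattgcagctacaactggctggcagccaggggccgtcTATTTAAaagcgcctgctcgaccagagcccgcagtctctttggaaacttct
Igfbp4 promoter, chr11:99040994-99041243, plus strand: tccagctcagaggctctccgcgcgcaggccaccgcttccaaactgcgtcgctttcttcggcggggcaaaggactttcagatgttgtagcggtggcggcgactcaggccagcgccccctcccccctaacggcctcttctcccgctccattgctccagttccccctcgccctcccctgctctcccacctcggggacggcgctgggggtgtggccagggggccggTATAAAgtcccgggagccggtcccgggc
Igfbp2 promoter, chr1:72824400-72824479, plus strand: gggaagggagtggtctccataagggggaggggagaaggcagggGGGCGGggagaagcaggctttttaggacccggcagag
Igfbp3 promoter, chr11:7213924-7214003, minus strand: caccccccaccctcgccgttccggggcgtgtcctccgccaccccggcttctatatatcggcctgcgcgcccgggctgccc
Igfbp6 promoter, chr15:102144106-102144185, plus strand: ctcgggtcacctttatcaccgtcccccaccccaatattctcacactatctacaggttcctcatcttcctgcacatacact
Igfbp7 promoter, chr5:77408046-77408125, minus strand: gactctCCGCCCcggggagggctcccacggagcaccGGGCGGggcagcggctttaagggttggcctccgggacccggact

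Over the 250 bases before the start, Igfbp4 held TATAAA with its first letter at position -28 from the start, and Igfbp5 held TATTTAA at position -51. TATAAA, the core of the TATA box, was in 12.4% and TATTTAA in 4.18% of 32851 promoters of the same length. Igfbp6 held TATAAA too, at position -148 and so outside the stretch shown. The stretch shown for Igfbp3 holds tatatat, which is TATA-like as well but was not searched for and is not in capitals. Such letters are therefore not particular to Igfbp4 and Igfbp5. GGGCGG, the GC box, was found 3 times before Igfbp2 and 4 times before Igfbp7, some of these outside the stretch shown, and in 32.7% of all promoters. The forkhead motif GTAAACA (3.17% of promoters) and the E-box CAGCTG (13.0%) were in none of the 6 windows, which says only that these letters are not there. Matches on both strands were counted and no shown matches of different motifs overlap. The motifs were picked with the sequences in view.

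The pools had the markers of the labelled tissue. By their means, all 10 cochlear epithelium markers (among them Sox2 and Tecta) and all 8 cartilage markers of the capsule were above background in both genotypes. So were 4 of 5 periotic mesenchyme markers, with Otos above it in 1 genotype. Background was taken as the 95th percentile of 65 olfactory and vomeronasal receptor probe sets, a log2 signal of 3.40. Pou4f3 passed with means of 4.98 in null and 3.72 in wild type, but read 1.76 in wild type replicate 1. Markers of tissue beside the cochlea were present too, with all 6 skeletal muscle markers above background and a summed signal of 6001 to 19516 in null and 5864 to 19329 in wild type pools. No 2 arrays held identical values. Igf1 itself was lower in every null array at each of its 3 probe sets. At the probe set 1452014_a_at Igf1 signal was 7.14, 6.92 and 7.12 in null and 7.93, 8.09 and 8.14 in wild type arrays, a null level of 0.502 of wild type (95% interval 0.404 to 0.624). The other Igf1 probe sets differed less. The null level was 0.729 of wild type at the brightest, 1437401_at (95% interval 0.591 to 0.901), and 0.684 at 1419519_at (0.524 to 0.894). Whether the 3 probe sets lie in the disrupted part of the gene is not known here.

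Of the 14 probe sets, 13 were above background in both genotypes, and these cover all 6 genes. None differed between genotypes past an adjusted p of 0.05 in limma, as for every other probe set (0 of 22626, 0%). Adjusted p for the members ran from 0.887 to 0.998. At an unadjusted p under 0.05 there were 2 member probe sets, 1 of Igfbp5 and 1 of Igfbp4, both lower in null. Past that mark stood 4.99% of all probe sets, or 2.58% counting those lower in null. At the same 2 probe sets the arrays did not overlap, with all null arrays lower, which held for 5.3% of all probe sets. None of the 14 was higher in all null arrays, against 5.53% of all probe sets. Signal was lower in the null mean at 10 of 14 probe sets, with a median difference of -0.16, against 49.3% and a median of 0.0041 over all probe sets. The 14 are not independent of each other, since 6 of them measure Igfbp4.

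**Figure D1:**
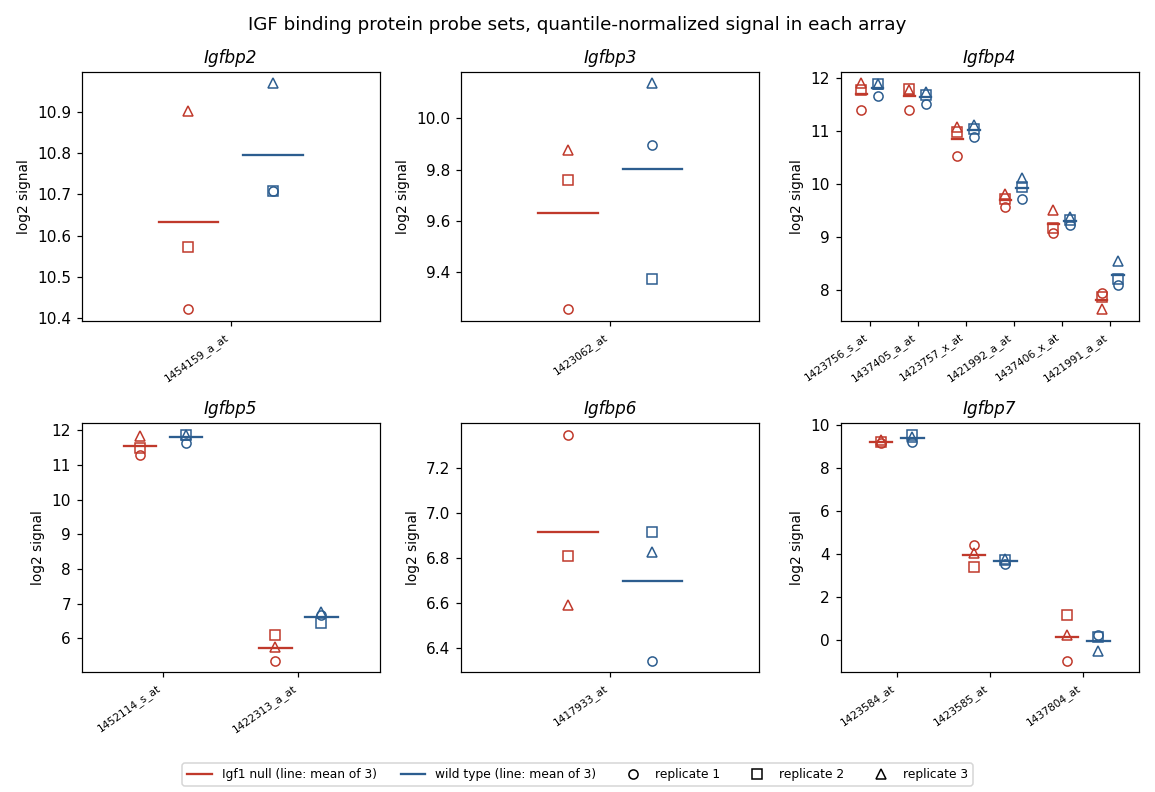
Log2 signal of the 14 probe sets in each array, 1 panel per gene with its own vertical axis, Igf1 null in red left of wild type in blue; symbols mark the replicate number and lines the means of 3 arrays. The null arrays lie below all wild type arrays at 1421991_a_at of Igfbp4 and 1422313_a_at of Igfbp5, and overlap them at the other 12 probe sets.

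Igfbp5, the matrix-binding member, had the largest difference of the 14 at its dimmer probe set. There (1422313_a_at) Igfbp5 signal was 5.35, 6.08 and 5.74 in null replicates 1 to 3, against 6.66, 6.43 and 6.76 in wild type replicates 1 to 3. Every null array was below every wild type array, and the null mean of 5.72 ± 0.37 stood against 6.61 ± 0.17 in wild type (SD, n = 3 each). The difference was -0.89 ± 0.22 (SE), a null level of 0.540 of wild type with a 95% interval of 0.366 to 0.797. The unadjusted limma p was 0.00916, the adjusted limma p 0.887, and the exact two-sided permutation p 0.1, the smallest that 3 against 3 arrays allow. In such pooled tissue, fewer cells of a type and less RNA per cell cannot be told apart.

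The brighter Igfbp5 probe set differed less. At 1452114_s_at Igfbp5 signal was 11.30, 11.48 and 11.85 in null and 11.63, 11.87 and 11.87 in wild type arrays. The highest null array lay within the wild type range, so the groups overlap. The means were 11.54 ± 0.28 in null and 11.79 ± 0.14 in wild type cochleae (SD, n = 3 each), a difference of -0.25 ± 0.18 (SE), with a null level of 0.840 of wild type (95% interval 0.610 to 1.16; adjusted limma p 0.981). In the array maker's naming, a suffix of a marks a probe set whose probes all match transcripts of 1 gene, s one whose probes can match transcripts of several genes, and x one that holds probes with matches elsewhere.

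Whether the 2 Igfbp5 probe sets gave different genotype differences was tested on the gap between them in each array. The gap, 1422313_a_at minus 1452114_s_at, was -5.95, -5.40 and -6.10 in null and -4.97, -5.45 and -5.12 in wild type arrays. Null replicate 2 reached into the wild type range, and the means differed by -0.64 with an exact permutation p of 0.2. On the values as deposited the gap was -6.15, -5.38 and -6.13 in null and -4.88, -5.29 and -5.17 in wild type arrays, without overlap (exact permutation p 0.1). The mean of both probe sets was 8.32, 8.78 and 8.79 in null and 9.14, 9.15 and 9.31 in wild type arrays, without overlap. It includes the separated 1422313_a_at, so its separation is not a second, independent result. That mean differed by -0.57 ± 0.17 (SE), with an adjusted limma p of 0.904 over genes. A sign of RNA quality, the 3' minus 5' log2 signal of the beta-actin control probe sets, was 0.75, 0.95 and 1.12 in null and 0.73, 0.65 and 0.80 in wild type arrays, higher in the null mean by 0.21 with overlapping arrays (exact permutation p 0.2). Its part in the low null signal of the dimmer Igfbp5 and Igfbp4 probe sets was not tested.

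Igfbp4, the member cut by PAPP-A, was read by 6 probe sets that differed little between genotypes except at the dimmest. At 1421991_a_at Igfbp4 signal was 7.93, 7.86 and 7.63 in null and 8.09, 8.20 and 8.53 in wild type arrays. All null arrays were below all wild type arrays, with means of 7.81 ± 0.16 and 8.27 ± 0.23 (SD, n = 3 each). The difference of -0.47 ± 0.17 (SE) is a null level of 0.723 of wild type (95% interval 0.538 to 0.971), with an unadjusted limma p of 0.0367, an adjusted limma p of 0.974 and an exact permutation p of 0.1.

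At the other 5 probe sets of Igfbp4 the genotypes overlapped. The brightest, 1423756_s_at, read 11.40, 11.77 and 11.90 in null and 11.67, 11.90 and 11.89 in wild type arrays, a difference of -0.13 ± 0.17 (SE) with a 95% interval of -0.56 to 0.31. Null replicate 1 was the low array there. The remaining 4 differed by -0.24 ± 0.15 (1421992_a_at), -0.15 ± 0.18 (1423757_x_at), -0.052 ± 0.15 (1437406_x_at) and 0.015 ± 0.16 (1437405_a_at), all SE from limma, with exact permutation p from 0.2 to 0.9. The mean over the 6 probe sets differed by -0.17 ± 0.14 (SE) and overlapped between genotypes. At the brightest probe set the null level was 0.916 of wild type, with a 95% interval of 0.676 to 1.24.

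The Igfbp4 probe sets moved together from array to array, apart from the dimmest. Against the brightest probe set, the gap of 1423757_x_at varied over the 6 arrays with an SD of 0.040, that of 1437405_a_at with 0.097, that of 1437406_x_at with 0.11 and that of 1421992_a_at with 0.12. The gap of 1421991_a_at varied with an SD of 0.34, and its means of -3.89 in null and -3.54 in wild type arrays overlapped in their arrays (exact permutation p 0.3). Of 8 such gaps over the members, 1 did not overlap between genotypes, that of 1437405_a_at, with -0.03 ± 0.09 in null and -0.17 ± 0.03 in wild type arrays (SD, n = 3 each; exact permutation p 0.1, adjusted over the 8 gaps 0.571). On the values as deposited the arrays did not overlap for 4 of the 8 gaps, all lower in null. These were the gaps of 1423757_x_at, 1421992_a_at and 1421991_a_at of Igfbp4 and of 1422313_a_at of Igfbp5, while that of 1437405_a_at overlapped. The Igfbp4 gaps all use the same brightest probe set and so are not independent. How often such gaps separate over all genes was not counted, so these counts have no share to stand beside.

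**Figure D2:**
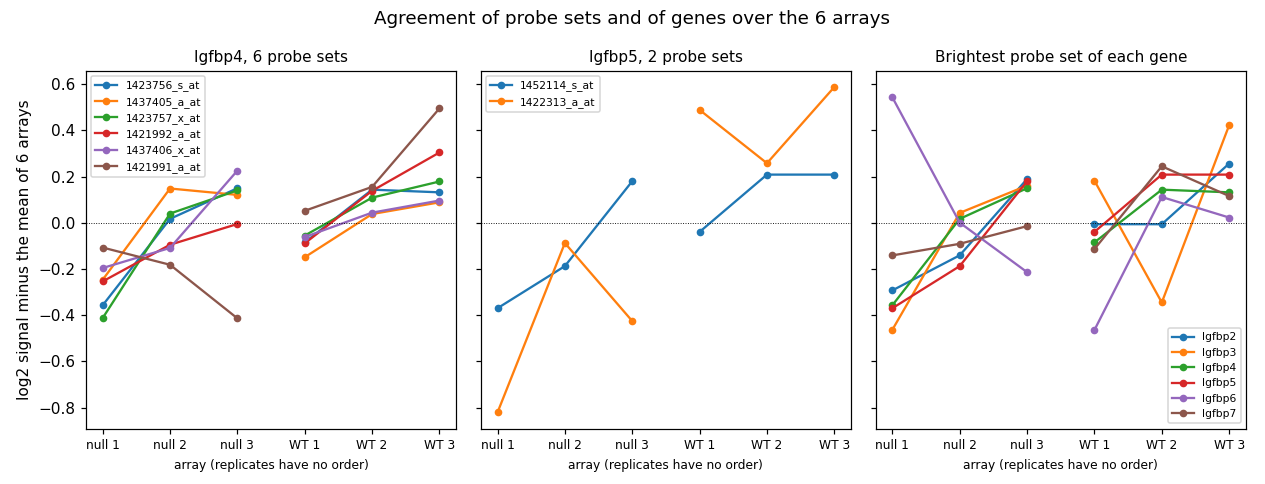
Log2 signal minus the mean of the 6 arrays, for the 6 probe sets of Igfbp4, the 2 of Igfbp5 and the brightest probe set of each gene, with the 3 null arrays left of the 3 wild type (WT) arrays; lines join values of 1 probe set within a genotype. The bright Igfbp4 probe sets run close together, 1421991_a_at departs from them, and in the right panel null replicate 1 is low for 5 genes and high for Igfbp6.

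Igfbp2, whose protein carries the integrin-binding motif, overlapped between genotypes. Igfbp2 signal was 10.42, 10.57 and 10.90 in null and 10.71, 10.71 and 10.97 in wild type arrays. A pair of null arrays were the lowest of the 6, and the third lay between wild type arrays. The difference was -0.16 ± 0.17 (SE), a null level of 0.893 of wild type (95% interval 0.661 to 1.21; adjusted limma p 0.982).

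Igfbp3, the main carrier of insulin-like growth factors in blood after birth, varied more within each genotype than between them. Its signal was 9.25, 9.76 and 9.88 in null and 9.90, 9.37 and 10.14 in wild type arrays. The lowest null array and wild type replicate 2 were close to each other and apart from the rest. The difference was -0.17 ± 0.27 (SE), with a null level of 0.887 of wild type (95% interval 0.550 to 1.43; adjusted limma p 0.987).

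Igfbp6, the member with a preference for IGF2, was higher in the null mean by less than the spread. Its signal was 7.35, 6.81 and 6.59 in null and 6.34, 6.92 and 6.83 in wild type arrays. The highest array of all was null replicate 1 and the lowest wild type replicate 1, while the other 4 arrays lay between them. The difference of 0.22 ± 0.27 (SE) has a 95% interval of -0.45 to 0.89 (adjusted limma p 0.985).

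Igfbp7, the weak binder, had 1 bright probe set and others near background. At 1423584_at the Igfbp7 signal was 9.15, 9.20 and 9.28 in null and 9.18, 9.54 and 9.41 in wild type arrays, a difference of -0.16 ± 0.13 (SE; 95% interval -0.50 to 0.17). The lowest wild type array fell among the null arrays. At 1423585_at the Igfbp7 means of 3.95 ± 0.53 in null and 3.65 ± 0.13 in wild type arrays (SD, n = 3 each) were just above background, with a difference of 0.30 ± 0.29 (SE). At 1437804_at the means of 0.13 and -0.05 were not above background, and that probe set bears on no level of Igfbp7.

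**Figure D3:**
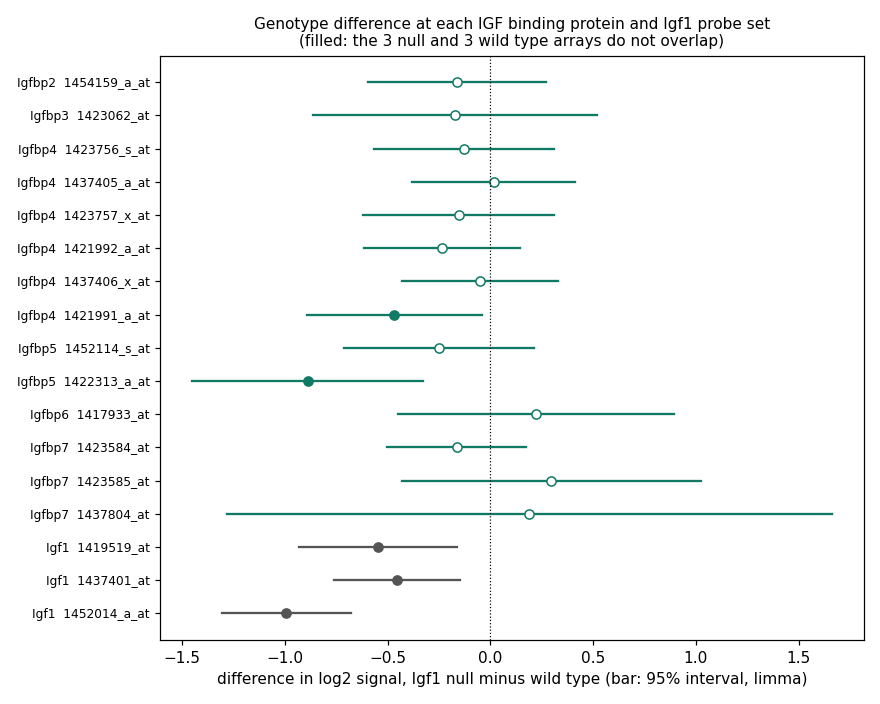
Difference in log2 signal, Igf1 null minus wild type, at the 14 probe sets of the binding proteins (green) and the 3 of Igf1 (grey), with 95% intervals from limma; filled points mark probe sets whose null and wild type arrays do not overlap. The intervals of 2 binding protein probe sets and of all 3 Igf1 probe sets lie below 0.

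At the brightest probe set of each gene, 5 of the 6 genes were lower in the null mean, with a median difference of -0.16, against 48.7% of all 12393 genes. Null replicate 1 was low at most member probe sets. It also had the lowest median as deposited, 5.61, against 6.09 to 6.37 for the other 5 arrays. After normalization it was the lowest array at 10 of the 13 probe sets above background, where it was lowest at 19.8% of all probe sets above background and at 23.2% of the probe sets in the top 10 percent by level. Without that array the differences of Igfbp3 and of 1423756_s_at, 1423757_x_at and 1437406_x_at of Igfbp4 were above 0 (0.017, 0.020, 0.014 and 0.032), and Igfbp2 differed by -0.058. Igfbp6 then differed by 0.0046, Igfbp7 at 1423585_at by 0.058, and the bright Igfbp5 probe set by -0.13. The bright Igfbp5 difference was -0.41 without null replicate 3, and that of Igfbp7 at 1423585_at 0.58 without null replicate 2. At the separated probe sets of Igfbp5 and Igfbp4 the differences without null replicate 1 were -0.70 and -0.53 (adjusted limma p 0.927 and 0.974). These probe sets were singled out because their arrays separate, so a kept sign is no independent result.

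**Figure D4:**
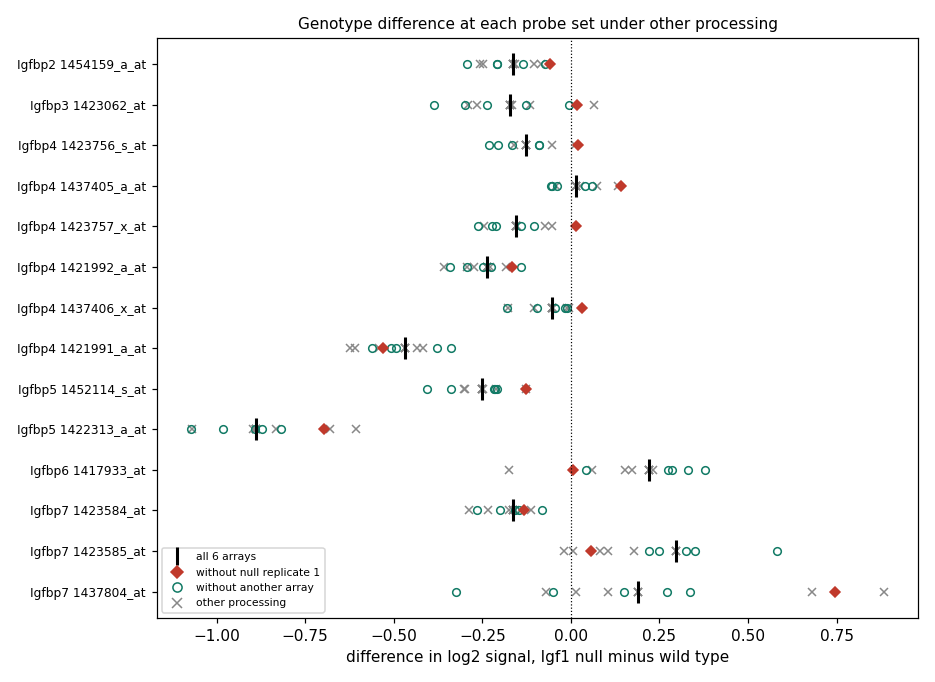
Difference in log2 signal, Igf1 null minus wild type, at each of the 14 probe sets with all 6 arrays (black bar), without null replicate 1 (red diamond), without each other array (green circle) and under other processing (grey cross). The values for 1422313_a_at of Igfbp5 run from -1.07 to -0.61 and those for 1421991_a_at of Igfbp4 from -0.62 to -0.34, all below 0.

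Marker lists of several tissues leaned one way between genotypes, though no marker passed an adjusted p of 0.05. All 8 cartilage markers and all 5 measured bone markers were lower in the null mean, with median differences of -0.32 and -0.20 and 2 markers of each list separated, where 4.98% of all genes were separated with null lower. Summed cartilage signal was 23148 to 31864 in null and 29334 to 36048 in wild type arrays, and summed bone signal 7824 to 10819 in null and 8974 to 11449 in wild type arrays. Of 7 endothelial markers 6 were lower, with a median of -0.11 and a summed signal of 1134 to 1229 in null and 1148 to 1299 in wild type arrays. Of 6 measured meninges and choroid plexus markers 5 were lower, with a median of -0.19. The summed signal of that list was 1408 to 2554 in null and 1799 to 6373 in wild type arrays. Most of the highest sum was Ttr, at a log2 signal of 12.37 in wild type replicate 1 against 9.38 and 9.56 in the other wild type arrays. Such sums weigh the brightest markers of a list most. The remaining marker of that list, Otx2, was higher in all null arrays but above background in 1 genotype only.

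Of 3 measured erythroid markers 2 were lower and separated, with a list median of -0.79 and a summed signal of 118 to 195 in null and 237 to 326 in wild type arrays. These were Slc4a1, the anion exchanger of red cells, at -1.76 ± 0.18 (SE), and the heme synthesis gene Alas2 at -0.79 ± 0.23, while Epb42 was not above background. Other lists leaned the other way. Higher in the null mean were 8 of 10 cochlear epithelium markers, with a median of 0.24 and a summed signal of 2024 to 2924 in null and 1850 to 2526 in wild type arrays. Of these, 1 was separated, Otog, where 5.62% of all genes were separated with null higher. So were 4 of 5 periotic mesenchyme markers higher, with a median of 0.18 and a summed signal of 4766 to 6246 in null and 4384 to 5809 in wild type arrays. Skeletal muscle markers (5 of 6 higher, median 0.038) and Schwann cell and neuron markers (2 of 4 higher, median 0.0079) had medians near 0. The part of these tissues in the binding protein values was not tested.

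Array profiles of the members were compared by the root mean square difference of centred log2 values over the 6 arrays, at the brightest probe set of each gene. Igfbp5 and Igfbp4 were 0.10 apart, as were Igfbp5 and Igfbp2, the pair of genes that lie next to each other on chromosome 1, where the median of 7101 genes compared with Igfbp5 was 0.26. Igfbp6 was the member farthest from Igfbp2, Igfbp3, Igfbp4 and Igfbp5, at 0.43 to 0.57. From Igfbp7, Igfbp3 (0.34) and Igfbp6 (0.33) were about equally far. These profiles share arrays and the low level of null replicate 1, so they describe these 6 arrays only. The nearest genes to Igfbp5 were Slc12a4 (0.04) and Tenm3 (0.05), to Igfbp4 Ski (0.04) and Plscr3 (0.04), and to Igfbp2 Ergic1 and Tcf7l1 (0.05 each). Nearest to Igfbp3 was the mesenchymal homeobox gene Prrx1 (0.07), then Lrba (0.11). For Igfbp6 they were Gadd45gip1 and Birc6 (0.08 and 0.09), and for Igfbp7 Arpc1a and Mtmr3 (0.03 each).

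The ligands, receptors and proteases that act with the binding proteins did not differ past the threshold either. Of 21 other genes of the system 19 were measured and 11 were above background in both genotypes. In limma 0 passed an adjusted p of 0.05 in either direction, with 2 of 19 at an unadjusted p under 0.05, Igf1 and Insr, where 4.46% of all genes stood past that mark. Of the 19, 10 were lower and 9 higher in the null mean, with a median of -0.09 against 0.0062 over all genes.

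Among ligands, Igf2, the other growth factor these proteins bind, read 12.72, 12.96 and 12.86 in null and 12.89, 13.08 and 13.05 in wild type arrays (-0.16 ± 0.12 SE, overlapping). Of the receptors, Igf1r, which carries the growth signal, differed by 0.09 ± 0.16 and Igf2r, which clears IGF2, by -0.13 ± 0.19. The insulin receptor gene Insr was not above background, so its difference gives no change in level. Igfals, which encodes the acid-labile subunit, was above background in 1 genotype, with means of 3.40 in null and 3.48 in wild type arrays.

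Pappa, whose product cuts IGFBP4 and IGFBP5, was the 1 list gene that was higher in all null arrays. Its signal was 6.07, 6.34 and 6.83 in null and 5.93, 5.87 and 6.02 in wild type arrays. Null replicate 1 was close to the wild type range and null replicate 3 farthest from it. The difference was 0.47 ± 0.22 (SE) with a 95% interval of -0.07 to 1.02 (unadjusted limma p 0.0774, adjusted 0.980), and 5.62% of all genes were separated with null higher. The serine protease gene Htra1 differed by -0.24 ± 0.19 and the metalloprotease gene Adam12 by -0.28 ± 0.18, both overlapping.

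Of the stanniocalcins, which inhibit PAPP-A, Stc1 differed by -0.18 ± 0.23 (SE), and Stc2 was not above background. Tmem219, which encodes a receptor for IGFBP3, differed by 0.17 ± 0.15. Of proteins that share the binding protein domain, Kazald1 differed by 0.09 ± 0.11 and Htra3 by -0.34 ± 0.19, both with overlapping arrays. Adjusted limma p for these genes was 0.980 or above.

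**Figure D5:**
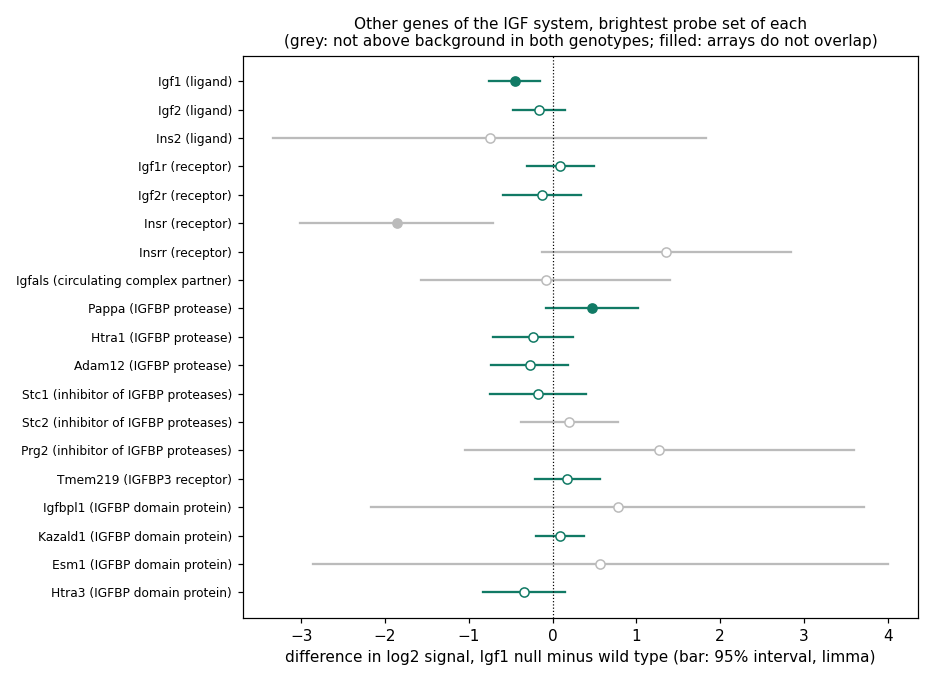
Difference in log2 signal, Igf1 null minus wild type, for 19 other genes of the insulin-like growth factor system at the brightest probe set of each, with 95% intervals from limma; grey marks genes not above background in both genotypes and filled points genes whose arrays do not overlap. Among genes above background, Igf1 lies below 0 and Pappa is the separated gene with the higher null signal.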

How the data were processed

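Gene expression was measured in 3 Igf1 null and 3 wild type pools of cochleae, 1 array each. Per the labels' protocols, biotinylated cRNA was prepared from total RNA and hybridised to Affymetrix arrays. The deposited values are log2 signals, 1 for each of 22690 probe sets on each array. Their base was judged from the range. How the authors summarised probes or corrected background is not stated in the sources at hand. Deposited medians differ between arrays, so the arrays were quantile normalized.

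The 64 control probe sets were left out. Genotypes were compared over 22626 probe sets in limma 3.58.1 under R 4.3.3, by moderated linear models with genotype as the sole term; p-values are two-sided, adjusted by Benjamini-Hochberg over every tested probe set, and judged at 0.05. Exact permutation tests over the 6 arrays were two-sided. No filter on level was applied. Genes (12393) were read at the probe set with the highest mean. All 14 member probe sets kept their symbol in RefSeq by Entrez identifier. Groups and replicate numbers are from the titles, which also hold a number, 14 for replicate 1 and 16 for the others, of unstated meaning. The labels call the pools independent. The procedure was run on simulated data with independent noise and planted changes larger than the differences of the members. That run does not bear on its power for differences of their size.

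Named genes are all members, Igf1, up to a pair of genes per role of the system list by level, and the closest profiles among genes above the median level; Pappa and Insr were added after their values were seen. Members, lists and motifs were chosen with earlier results of these data known. Alternatives were the deposited values, median centring, the replicate or title number as a block, a trended robust variance, array weights (statmod 1.5.0), a pseudocount of 32, leaving out probe sets below the 40th percentile, the mean of a gene's probe sets, and leaving out arrays.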

Additional observations from a re-analysis of the deposited data

How the results depend on the processing

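No probe set, member or other gene of the system passed an adjusted p of 0.05 in limma with the deposited values, median centring, either block, the other variance model, array weights, the pseudocount of 32, the level filter, or any array or both arrays of title number 14 left out, and no member gene did with the mean of its probe sets (0 throughout). Of 154 member values from the 11 alternatives that can move a difference, 139 kept their sign; both blocks, the variance model and the level filter leave the difference itself as it is. The lowest adjusted p was 0.587. With the replicate number as a block Igfbp5 at 1422313_a_at differed by -0.89 (adjusted p 0.822) and the calls were again 0. Deviations of same-numbered arrays from their genotype mean correlated at 0.040, 0.10 and 0.021. Differently numbered arrays were not compared, so these values cannot decide whether replicate numbers pair the samples.

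Igfbp4 at 1437405_a_at and Igfbp7 at 1437804_at differed by -0.042 and -0.069 on the deposited values, and Igfbp4 at 1423756_s_at by 0.011 with median centring. Without title number 14, Igfbp3 differed by 0.065, Igfbp6 by -0.17 and Igfbp7 at 1423585_at by -0.019. With single arrays left out the ranges were -0.39 to 0.017 for Igfbp3, -0.23 to 0.020 for 1423756_s_at, -0.056 to 0.14 for 1437405_a_at, -0.26 to 0.014 for 1423757_x_at, -0.18 to 0.032 for 1437406_x_at, -0.41 to -0.13 for 1452114_s_at, 0.0046 to 0.38 for Igfbp6, 0.058 to 0.58 for 1423585_at and -0.32 to 0.75 for 1437804_at. Separated gaps between probe sets of a gene numbered 4 on the deposited values, against 1 of 8 after quantile normalization. They numbered 4 without title number 14 and 1 to 4 with single arrays left out. Median centring moves each array by a constant, so its gaps equal the deposited ones and give no separate count. The share of separated gaps over all genes was not counted, and the cause of these changes in count was not tested. Fewer arrays separate more easily, so the counts with arrays left out are not directly comparable with the others. The count on the deposited values left out no array. Signal near background limits 1423585_at and 1437804_at.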
